A study of Mus musculus with 65 samples.

Results

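Transcripts of 6 genes of the A-type potassium channel complex, the pore genes Kcnd2 and Kcnd3 and the KChIP genes Kcnip1, Kcnip2, Kcnip3 and Kcnip4, were followed in single HSD2 neurons. They were chosen by name, and all 6 were found among the 11875 named genes listed. The 65 cells were taken from the brainstem's nucleus of the solitary tract (NTS), in male mice of mixed strain carrying Hsd11b2-Cre and the Ai9 (lox) reporter in both diet groups. The reporter makes the red protein tdTomato where Cre has acted, so a cell entered the study through its history of Hsd11b2 expression, and red cells were picked by hand after papain digestion. PolyA RNA of each cell was made into a Smart-Seq2 library, a method that copies full-length transcripts. Standard chow was the diet for 33 of the neurons and a low-sodium diet for 32. The question set by the design is how the sodium content of the diet bears on these neurons. The labels name neither the animals nor their age, so each diet counted as 1 sample: no test was run between the diets, and every SD is over cells. The protocol speaks of digested Arc-ME, while each cell's tissue label names the NTS, which is used here.

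Kv4 channels carry the somatodendritic A-type current, a potassium current that opens below spike threshold, inactivates fast and delays the next spike. Their pores are built from alpha subunits such as those of Kcnd2 and Kcnd3. KChIPs are calcium-binding EF-hand proteins that attach to the cytoplasmic N-terminus of the pore subunits, raise the number of channels at the surface and shape their inactivation. HSD2 neurons are glutamatergic, sense aldosterone through the mineralocorticoid receptor (Nr3c2) and are known for their link to sodium appetite.

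The members had to be told apart from their own relatives by sequence, so stretches of their coding transcripts are shown first (GENCODE M21 on GRCm38, principal coding transcript, all exonic and coding). Between any pair of KChIP genes, 71.4% to 74.4% of aligned coding bases were identical, and the longest identical run was 17 to 19 bases. With the coding ends aligned at the stop codon, the 60 bases below were the most alike over all 4 genes, with 41 of 60 bases (68.3%) shared. Capitals mark bases identical in all 4. They lie at chr11:33643328-33644519 (Kcnip1), chr19:45794772-45794998 (Kcnip2), chr2:127465080-127465369 (Kcnip3) and chr5:48409827-48419232 (Kcnip4), all on the minus strand and each crossing an intron that is left out.
Kcnip1: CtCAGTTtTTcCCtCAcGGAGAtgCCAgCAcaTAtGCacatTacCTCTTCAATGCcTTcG
Kcnip2: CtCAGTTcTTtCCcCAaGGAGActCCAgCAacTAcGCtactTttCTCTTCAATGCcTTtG
Kcnip3: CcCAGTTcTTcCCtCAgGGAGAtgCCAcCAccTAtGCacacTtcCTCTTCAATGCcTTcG
Kcnip4: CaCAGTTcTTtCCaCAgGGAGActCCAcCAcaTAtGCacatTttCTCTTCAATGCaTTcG

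The first 60 coding bases of the same transcripts shared only 5 of 60 bases (8.33%), the start codon included. They lie at chr11:33843131-33843190, chr19:45815744-45815803, chr2:127510950-127521252 (crossing an intron) and chr5:48889406-48889465. Capitals again mark bases identical in all 4.
Kcnip1: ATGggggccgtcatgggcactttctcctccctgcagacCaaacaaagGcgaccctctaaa
Kcnip2: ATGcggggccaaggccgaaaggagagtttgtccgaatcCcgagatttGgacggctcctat
Kcnip3: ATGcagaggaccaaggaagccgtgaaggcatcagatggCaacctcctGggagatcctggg
Kcnip4: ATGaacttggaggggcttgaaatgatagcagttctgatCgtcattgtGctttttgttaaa

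The pore genes were alike from the start codon on. Over the whole coding sequence 73.9% of their aligned bases were identical, with a longest identical run of 23 bases. In their first 60 coding bases, at chr6:21216299-21216358 (Kcnd2) and chr3:105458816-105458875 (Kcnd3), both on the plus strand, 51 of 60 bases were the same, and capitals mark those.
Kcnd2: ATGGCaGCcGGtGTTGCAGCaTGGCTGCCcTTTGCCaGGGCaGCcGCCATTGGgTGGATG
Kcnd3: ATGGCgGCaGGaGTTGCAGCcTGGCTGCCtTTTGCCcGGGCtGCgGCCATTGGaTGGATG

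Values are the deposited log2(CPM + 1), where CPM is counts per 1000000 reads. The spacing of low values gave 50079 to 5319978 reads per cell (median 651271), so that 1 read stood for 0.16 to 16.1 CPM, and a member without a read was below what that cell could show. At least 3 of 7 pan-neuronal and at least 3 of 5 HSD2 identity markers exceeded 10 CPM in all 65 cells. In 9 low-sodium cells the listed genes summed to 1393471 to 2170050 CPM, against 754874 to 1147326 in the other 56. Results that rest on these 9 cells are given with and without them. At least 3 markers of 1 non-neuronal list exceeded 10 CPM in 32 cells, 17 chow and 15 low-sodium.

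Kcnd2 was the more widely found pore gene, with reads in 48 of 65 cells (73.8%, exact 95% interval 61.5% to 84.0%, which like all intervals here covers counting error only). Its level ranged in chow cells from 0 to 7.28 log2(CPM + 1) with a median of 5.12. In low-sodium cells it ranged from 0 to 8.82 with a median of 3.35, and the median was 5.37 in the 23 of them without high CPM sums. The diets overlapped over nearly the whole range, and which diet had the higher median turned on the 9 high-sum cells. Reads were present in 27 chow cells and 21 on low sodium, 16 of them among the 23. The gene spans chr6:21215503-21729805 on the plus strand.

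Kcnd3, the other pore gene of the table's members, was found in 30 of 65 cells (46.2%, 33.7% to 59.0%). Its level ran from 0 to 7.32 log2(CPM + 1) in chow and from 0 to 7.66 in low-sodium cells, with a median of 0 in both. With reads in 16 chow and 14 low-sodium cells, the ranges of the diets overlapped almost fully. The gene lies at chr3:105452330-105674002 on the plus strand. It shares 165 exonic bases with the antisense gene Kcnd3os, and since no source used here states whether counting used strand, reads there cannot be told apart.

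Both pore genes were found together in 25 cells, Kcnd2 alone in 23, Kcnd3 alone in 5 and neither in 12. Of the 12 cells without a pore read, 4 were chow and 8 low-sodium, 3 of them among the 9 cells with high CPM sums. Kcnd2 thus had reads in 25 of the 30 cells with Kcnd3, and Kcnd3 in 25 of the 48 cells with Kcnd2. The rank correlation of the pore genes over the 65 cells was 0.14.

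Kcnip1 was the KChIP gene found in every one of the 65 cells (exact 95% interval 94.5% to 100%). In chow cells it ranged from 5.69 to 9.12 log2(CPM + 1) with a median of 7.55 and a mean of 7.47 ± 0.85 (SD, n = 33 cells). In low-sodium cells it ranged from 0.77 to 11.13 with a median of 8.13 and a mean of 7.89 ± 2.31 (SD, n = 32 cells), and without the 9 high-sum cells the median was 7.63. The chow cells thus formed a narrow band, and low-sodium cells lay on both sides of it. All those above it were among the 9 high-sum cells, and the other 23 reached 8.56 at most. The gene, at chr11:33629339-33993152 on the minus strand, encodes a KChIP known to slow the inactivation of Kv4 channels.

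Kcnip4 was the other common KChIP gene, with reads in 59 of 65 cells (90.8%, 81.0% to 96.5%). Its level ran from 0 to 8.72 log2(CPM + 1) in chow cells, with a median of 6.27. In low-sodium cells it ran from 0 to 8.83, with a median of 6.96. Each diet held 3 cells without a Kcnip4 read, and the rest of the cells overlapped between diets. Kcnip4 has a variant known to suppress fast inactivation, but values per gene do not separate variants. It is the longest member, spanning chr5:48389502-49524907 (1135 kb, minus strand), and its exons share 168 bases with 5730480H06Rik and 99 bases with Gm20700 on the opposite strand, where reads cannot be told apart.

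Kcnip2, the main KChIP of heart muscle, was found in 31 of 65 cells (47.7%). It ran from 0 to 7.55 log2(CPM + 1) in chow cells with a median of 0.68, and from 0 to 7.29 in low-sodium cells with a median of 0. Reads were present in 17 chow and 14 low-sodium cells, so each diet held cells with and without it in similar numbers. Cells with Kcnip2 had a median of 856684 reads and cells without it 589833. Thinned to 50000 reads each, 32.3% of cells still had it. It lies at chr19:45791839-45816061 on the minus strand.

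Kcnip3, also known as DREAM or calsenilin, a repressor of transcription as well as a KChIP, was the sparsest member. It was found in 16 of 65 cells (24.6%, 14.8% to 36.9%). Its level reached 7.42 log2(CPM + 1) in chow and 4.18 in low-sodium cells, from a lowest value and a median of 0 in both. Reads were seen in 12 of 33 chow cells (36.4%, 20.4% to 54.9%). Among low-sodium cells 4 of 32 had reads (12.5%, 3.51% to 29.0%), and all levels above 4.18 were in chow cells. The intervals overlap, but they cover counting error over cells only and do not compare the diets. The gene lies at chr2:127456498-127522094 on the minus strand.

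**Figure D1:**
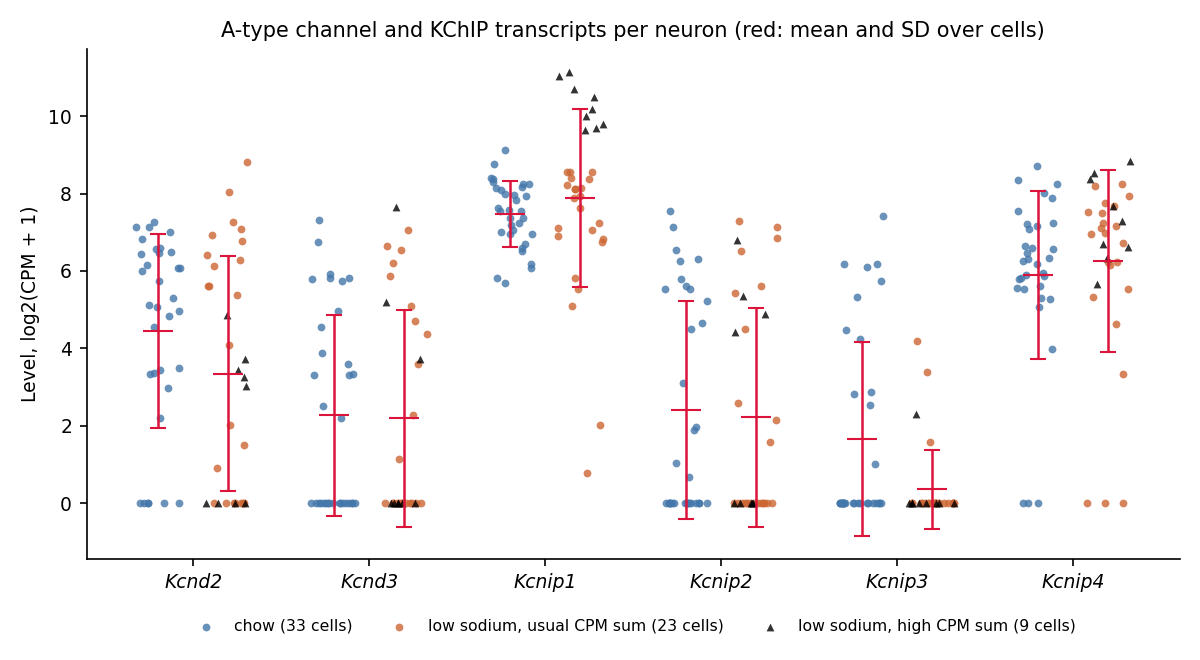
Level of each member in every cell, as log2(CPM + 1) on the vertical axis, by gene and diet; points are cells, triangles the 9 low-sodium cells with high CPM sums, and red bars the mean and SD over cells. Kcnip1 lies above 0 in all 65 cells and the triangles lie above its other cells, while Kcnip3 is at 0 in most cells.

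Levels of different genes were compared per kilobase of exon, since full-length reads grow with transcript length. On the scale log2(CPM per kb + 1), the mean level over 65 cells was 5.14 ± 1.53 (SD) for Kcnip1, 4.43 ± 1.78 for Kcnip4 and 2.35 ± 1.91 for Kcnd2. Below them stood Kcnip2 at 1.58 ± 2.03, Kcnd3 at 0.98 ± 1.34 and Kcnip3 at 0.65 ± 1.38. No neighbours in this order differed by more than the SD of their difference over cells. The widest step was 2.08 ± 2.65, from Kcnip4 to Kcnd2, and Kcnip4 exceeded Kcnd2 in 52 of 65 cells. Kcnip1 exceeded Kcnip4 in 42 of 65 cells. With the length of the principal transcript in place of all exons, Kcnip2 moved ahead of Kcnd2 in the mean (2.54 against 2.35). That step was 0.19 ± 3.78, and Kcnip2 was higher in 27 cells and lower in 29. The principal transcript of Kcnip2 has 693 bases, 660 of them coding, and that of Kcnd2 has 5152, 1890 of them coding. Kcnip1, at 6.89, and Kcnip4, at 5.07, stayed in front.

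**Figure D2:**
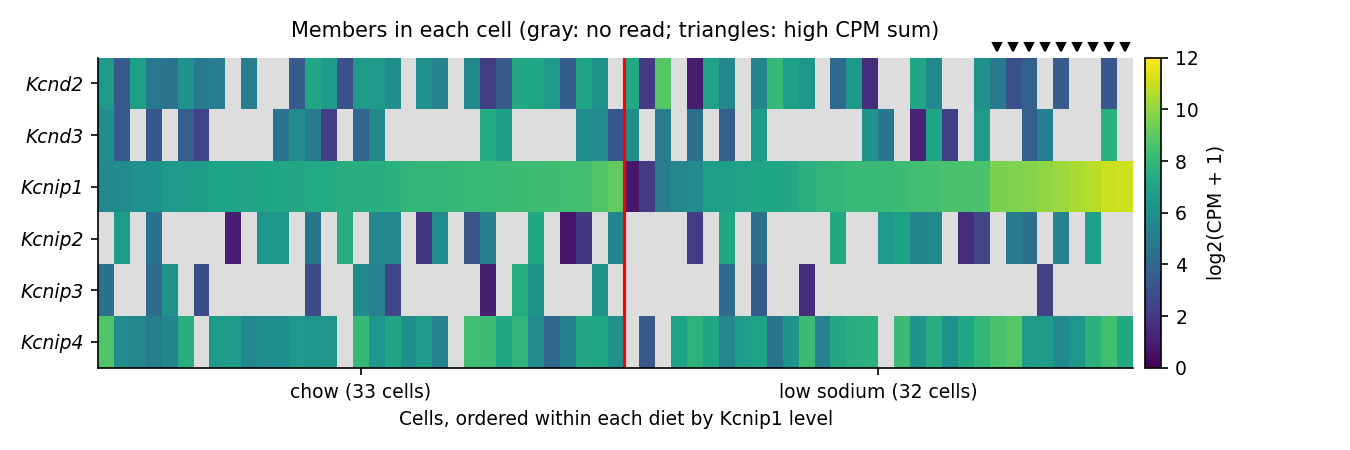
Level of the 6 members (rows) in each of the 65 cells (columns), colored by log2(CPM + 1), gray where no read was seen; cells are ordered within each diet by Kcnip1, and triangles mark the 9 cells with high CPM sums. Kcnip1 and Kcnip4 form nearly filled rows, and the other 4 rows are broken.

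Every cell held at least 1 KChIP gene: 1 in 3 cells, 2 in 26, 3 in 28 and 4 in 8. The most frequent combination was Kcnip1 with Kcnip4 alone, in 23 cells, followed by these with Kcnip2 in 21. Kcnip1, Kcnip3 and Kcnip4 without Kcnip2 were found in 7 cells. All 6 members had reads in 6 cells, 4 chow and 2 low-sodium, and chow neuron 60 had reads of Kcnip1 alone, at 7.98 log2(CPM + 1). In the KChIP genes found, cells thus differed mostly in whether reads of Kcnip2 and Kcnip3 joined those of Kcnip1 and Kcnip4. Finding these 2 genes depended on depth: thinned to 50000 reads, 32.3% of cells had Kcnip2 and 12.3% had Kcnip3.

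Kcnip1 held the largest part of the KChIP reads in most cells. By CPM it was the leading KChIP gene in 51 of 65 cells (78.5%, 66.5% to 87.7%), Kcnip4 led in 11, Kcnip2 in 3 and Kcnip3 in 0. The mean share of summed KChIP CPM was 62.9% for Kcnip1, 28.6% for Kcnip4, 6.33% for Kcnip2 and 2.13% for Kcnip3. The diets were close, with Kcnip1 leading in 26 chow cells and 25 on low sodium. Per kilobase of exon Kcnip1 led in 38 cells, Kcnip4 in 21, Kcnip2 in 5 and Kcnip3 in 1. In the 9 cells with high CPM sums Kcnip1 led in all 9 with a mean share of 84.7%, against 59.1% in the other 23 low-sodium cells and 59.6% in chow cells.

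**Figure D3:**
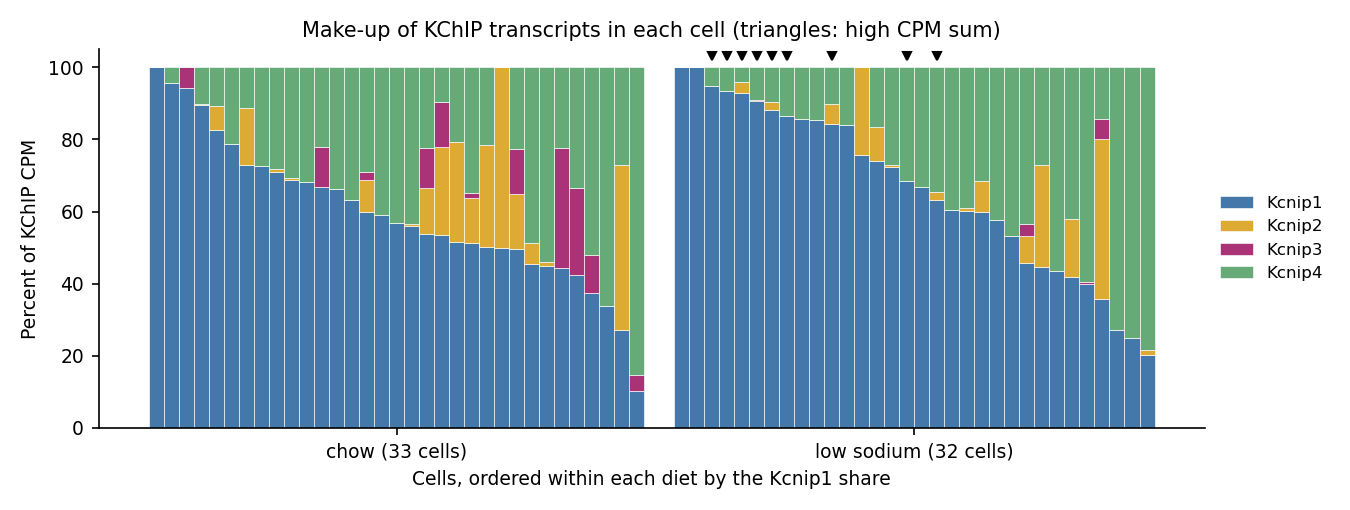
Percent of the summed KChIP CPM taken by each KChIP gene in every cell, 1 stacked bar a cell, ordered within each diet by the Kcnip1 share; triangles mark the 9 cells with high CPM sums. Kcnip1 leads in 51 of 65 cells, and the cells it does not lead are mostly led by Kcnip4.

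Pore and KChIP transcripts were found in the same cell in 53 of 65 cells (81.5%, 70.0% to 90.1%). The count was 29 of 33 in chow (87.9%, 71.8% to 96.6%), and among low-sodium cells 24 of 32 (75.0%, 56.6% to 88.5%). These intervals overlap, but cover counting error over cells only and do not compare the diets. The remaining 12 cells had KChIP reads without a pore read. Since KChIP genes were found in every cell, this count is set by the pore genes.

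By CPM, not scaled to transcript length, the summed KChIP level was above the summed pore level in all but 3 of the 65 cells. In chow cells log2(KChIP CPM + 1) minus log2(pore CPM + 1) ranged from 0.00 to 8.18 with a median of 2.35 and a mean of 3.14 ± 2.22 (SD, n = 33 cells). In low-sodium cells it ranged from -6.95 to 11.23 with a median of 3.74 and a mean of 4.24 ± 4.14 (SD, n = 32 cells). Low-sodium cells thus held both ends of the range. The 9 cells with high CPM sums averaged 7.34 ± 2.90, and without them the low-sodium mean was 3.03 ± 3.95, close to chow.

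The 3 cells with more pore than KChIP CPM, not scaled to transcript length, were all low-sodium. Low-sodium neuron 13 had Kcnd2 at 7.27 and Kcnd3 at 5.87 log2(CPM + 1), with Kcnip1 at 0.77, which was 2 reads, and no Kcnip4 read among 2444318 reads. Its Hsd11b2 level was 8.59 and its Nr3c2 level 6.11 log2(CPM + 1), so these identity markers were present. Low-sodium neuron 5 had Kcnd2 at 8.82, the highest of any cell, Kcnip1 at 5.09 and no Kcnip4 read, among 144586 reads and with non-neuronal markers present. In low-sodium neuron 17 Kcnd2 was at 8.03 and Kcnip1 at 7.12 log2(CPM + 1), a difference of summed levels of -0.69. The principal transcript of Kcnd2 has 5152 bases and that of Kcnip1 1749, so the order in neuron 17 depends on the length scale. Neuron 17 had Hsd11b2 at 9.19 but no Nr3c2 read among 1936342 reads. In neuron 5 Hsd11b2 was at 8.22 and Nr3c2 at 6.07. These cells were singled out after their values were seen.

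**Figure D4:**
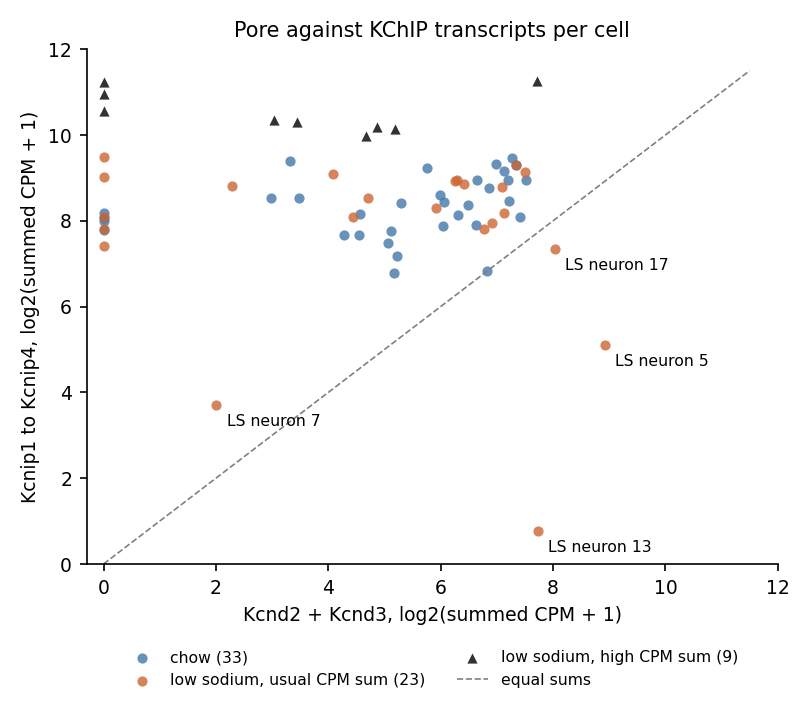
Summed KChIP level against summed pore level per cell, both as log2(summed CPM + 1), with the dashed line where they are equal; triangles are the 9 low-sodium cells with high CPM sums, and named points are low-sodium (LS) neurons. Of the 65 cells, 3 lie below the line, and 12 lie at a pore level of 0.

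Across cells, the summed pore and KChIP levels had a Spearman rho of -0.04 over all 65 cells, which differ in CPM sum and in depth. It was 0.42 over the 33 chow cells and -0.28 over the 32 low-sodium cells. With every cell rescaled to a common sum these values were -0.09, 0.40 and -0.35, in that order. On the deposited scale, leaving out the 9 high-sum cells gave 0.14 over 56 cells and -0.17 over the 23 other low-sodium cells. The rho of the pore sum with reads per cell was 0.03 and that of the KChIP sum 0.11. Among single genes, Kcnip1 with Kcnip4 gave 0.35 over 65 cells and 0.27 over the 56. The chow value was 0.14 and the low-sodium value 0.41, or 0.16 and 0.27 rescaled to a common sum. Kcnd2 with Kcnip3 gave 0.33 over both the 65 and the 56 cells, but 0.46 within chow and 0.10 within low sodium. Of the 16 cells with Kcnip3, 15 also had Kcnd2. Kcnd3 with Kcnip4 gave 0.19 over 65 cells, with 0.47 within chow and -0.04 within low sodium. Kcnd2 with Kcnip1 gave -0.23 over 65 cells and -0.06 over the 56, with 0.11 within chow and -0.39 within low sodium. All are descriptions, and the weak ones are no finding.

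Set side by side by diet, 0 of 6 members were higher by 1 or more in mean log2(CPM + 1) in low-sodium cells, where 3.61% of the 11875 genes were, and 2 of 6 were lower by 1 or more, where 6.55% were. These were Kcnd2, at 4.44 ± 2.50 in chow and 3.35 ± 3.02 in low-sodium cells (difference -1.09), and Kcnip3, at 1.66 ± 2.50 and 0.36 ± 1.03 (difference -1.31). Both differences were smaller than the chow SD over cells, and that of Kcnip3 was larger than its low-sodium SD of 1.03. The other members differed by -0.08 (Kcnd3), 0.41 (Kcnip1), -0.18 (Kcnip2) and 0.37 (Kcnip4). The median difference was -0.13 over the 6 members and -0.12 over all genes. With every cell rescaled to a common sum the members' counts were again 0 higher and 2 lower, where 2.21% and 9.58% of all genes were.

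The Kcnd2 difference depended on the cells and on how they were summarised. Leaving out the 9 high-sum cells gave -0.58, and the value was -1.24 with every cell rescaled to a common sum. It was -0.98 when any 1 of the 11 low-sodium cells without a Kcnd2 read was left out. As a log2 ratio of mean CPM plus 1 it was 0.05, and the highest Kcnd2 levels, 8.82 and 8.03 log2(CPM + 1), were in low-sodium cells. Leaving out the 9 cells, 1 of 6 members (Kcnip3, -1.27) was lower by 1 or more, where 6.27% of all genes were, and 0 were higher by 1 or more, where 2.84% were. Without these cells Kcnip1 turned from 0.41 to -0.53, Kcnip4 from 0.37 to -0.05 and Kcnd3 from -0.08 to 0.06, and Kcnip2 went from -0.18 to -0.24.

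Kcnip3 stood lower in low-sodium cells at each mean-based setting, from -3.08 as a log2 ratio of mean CPM plus 1 to -0.61 with a pseudocount of 10 CPM, while its median over cells was 0 in both diets. Its detection differed with non-neuronal markers. It was found in 12 of the 32 cells with such markers and in 4 of the 33 without, and the 4 were 3 of 16 chow and 1 of 17 low-sodium cells, with a difference in mean level of -0.77. Of 7 astrocyte markers, all listed, at least 3 exceeded 10 CPM in 10 chow cells and in 3 on low sodium. Their summed level ran from 0 to 2237 CPM in chow (median 30.7) and from 0 to 1045 CPM in low-sodium cells (median 10.2). Kcnip3 was found in 6 of the 13 cells with astrocyte markers and in 10 of the other 52, and in all 4 cells with ependymal markers. Oligodendrocyte markers, 6 of 7 listed, passed the same limit in 10 chow and 12 low-sodium cells, and Kcnip3 was found in 8 of these 22 cells and in 8 of the other 43. The part of these transcripts in the Kcnip3 and diet values was not tested. Kcnd3 was found in 19 of the 32 cells with non-neuronal markers and 11 of the 33 without, and Kcnip2 in 17 and 14. With these 32 cells left out, the Kcnd2 difference was -1.79, and those of Kcnd3 and Kcnip2 were 0.91 and 0.51.

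**Figure D5:**
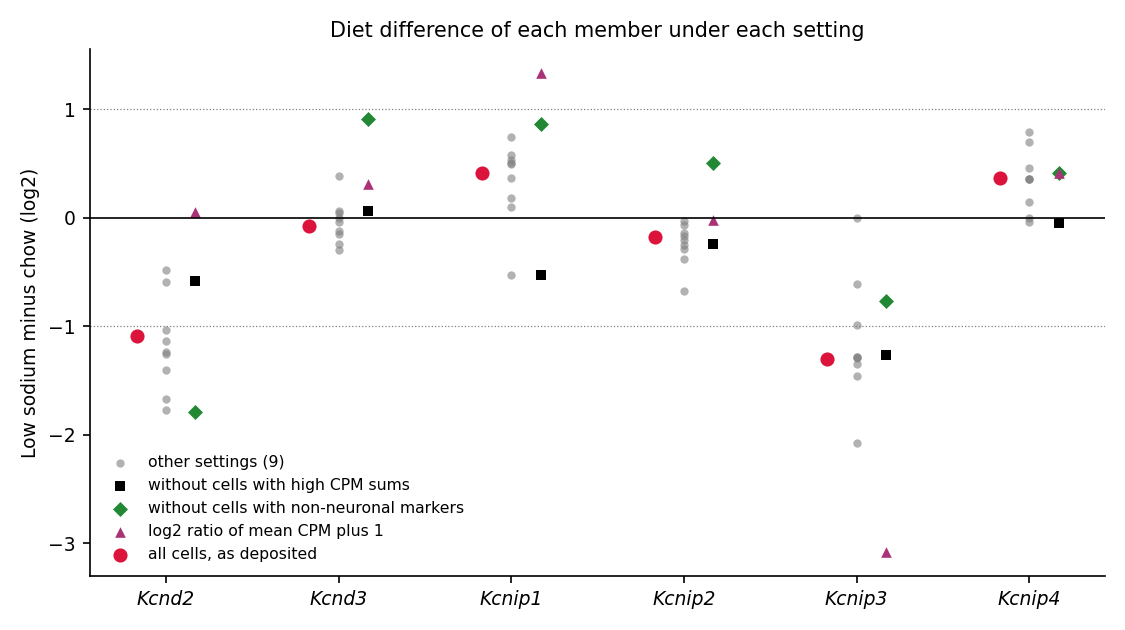
Difference in level, low-sodium minus chow, of each member (log2 units), for all cells as deposited (red) and under 12 other settings; dotted lines mark differences of 1 and -1. Kcnip3 lies at or below 0 at every setting shown, and Kcnd2 does so at all but 1.

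The 9 cells with high CPM sums carried the highest Kcnip1 levels. There Kcnip1 ran from 9.64 to 11.13 log2(CPM + 1), with a mean of 10.30 ± 0.57 (SD, n = 9 cells), above the highest of the other 56 cells at 9.12. The other 23 low-sodium cells ran from 0.77 to 8.56, with a mean of 6.94 ± 2.02. A higher CPM sum raises every gene, so all cells were also rescaled to a common sum. Kcnip1 then stood at 9.58 ± 0.61 in the 9 cells, 7.07 ± 2.06 in the 23 and 7.59 ± 0.88 in chow cells, and 5 of the 9 cells remained above all 56. On that scale the 9 cells were 2.51 above the 23, a difference that 1.74% of genes reached, where 11.2% of genes were higher and 35.5% lower by 1 or more and the median gene stood at -0.58. Kcnip4 differed by 0.65 (6.62 against 5.97) and Kcnd2 by -2.29 (1.64 against 3.93). Kcnip1 thus had a higher mean in these cells on both scales, but was fully apart from the other 56 only on the deposited one. Kcnd2 had reads in 5 of the 9, and 7.13% of genes had a difference as low or lower. The other cells reached down to 0 for Kcnd2, so a low level could not fall outside their range. The 9 cells had 218949 to 697694 reads (median 454584). These cells were defined by their CPM sum, a feature of the scaling, and whether they came from other animals or plates is not given in the sources used here.

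Among the other A-type pores and accessory subunits, 9 of 14 genes were listed, and Kcne1 to Kcne5, small accessory subunits, were absent from the named genes. In low-sodium cells 7 of the 9 were higher and 2 lower. By 1 or more, 0 were higher and 0 lower, where 3.61% and 6.55% of all genes were. The median difference was 0.42 against -0.12 over all genes, and 0.13 against -0.10 without the 9 cells. Dpp6, whose product is the other main auxiliary subunit of Kv4 channels, was found in 64 of 65 cells at 7.92 ± 1.48 log2(CPM + 1). It stood at 7.56 ± 1.71 in chow and 8.30 ± 1.10 in low-sodium cells, a difference of 0.75, or 0.43 without the 9 cells. Per kilobase of exon its mean was 4.43 log2(CPM per kb + 1), level with Kcnip4. Its relative Dpp10 was found in 31 cells, and Kcnd1, the remaining Kv4 pore gene, in 19. Kcnc4, a pore gene of fast inactivating Kv3 channels, averaged 6.61 (difference 0.61, or -0.05 without the 9 cells), and Kcnab2, a cytoplasmic beta subunit of Kv1 channels, 6.56 (0.18). Kcnab3, another beta subunit gene, differed by -0.73.

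Of 10 calcium sensor relatives of the KChIPs, 9 were listed, 1 higher by 1 or more (3.61% of all genes) and 2 lower (6.55% of all genes), with a median difference of -0.14 against -0.12 over all genes. Without the 9 high-sum cells 0 were higher and 1 lower by 1 or more, where 2.84% and 6.27% of all genes were. The median was then -0.24 against -0.10 over all genes. Ncs1, a calcium sensor that can also bind Kv4 channels, averaged 7.38 log2(CPM + 1) and differed by -1.05, or -0.68 without the 9 cells. Hpcal1, a hippocalcin relative, differed by -1.61, and by -1.66 without them. Hpcal4, of the same family, differed by 1.06, or 0.69 without them. Calm2 and Calm3, which encode calmodulin, averaged 9.61 and 8.20 log2(CPM + 1).

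Of 17 genes for anchoring, transport and phosphorylation of Kv4 channels, 15 were listed, 7 higher and 8 lower, 1 in each direction by 1 or more, where 3.61% and 6.55% of all genes were. Without the 9 high-sum cells 0 were higher and 1 lower by 1 or more, where 2.84% and 6.27% of all genes were. The median difference was then -0.20 against -0.10 over all genes. With all cells the genes past 1 were Dlg2, a synaptic scaffold (1.22, or 0.10 without the 9 cells), and Camk2d, a calcium-dependent kinase subunit (-1.07, or -1.15 without them). Prkacb and Prkaca, catalytic subunits of protein kinase A, averaged 9.27 and 7.65 log2(CPM + 1). All 8 genes listed as partners or repressed targets of Kcnip3 were present, 4 higher and 4 lower. By 1 or more, 0 of these were higher and 0 lower, where 3.61% and 6.55% of all genes were. Their median was -0.01, or 0.22 without the 9 cells, against -0.12 and -0.10 over all genes. Fos, an immediate early gene, averaged 6.37 (0.37), and Crem, a transcription factor gene whose product can bind that of Kcnip3, 5.14 (-0.40). Bdnf, a neurotrophin gene, differed by -0.65 and by 0.46 without the 9 cells.

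For each member the 3 genes with the most similar pattern over 65 cells were taken by Spearman rho from 10860 genes found in at least 16 cells. Kcnip1 was most like Fndc9 (0.65), Pnmal1 (0.59) and Adi1 (0.59), and over the 56 cells these values were 0.46, 0.37 and 0.40. Kcnip4 was most like Dzip3 (0.54), AK133078 (0.50) and Trim9 (0.50). For Kcnd2 they were Fam63b (0.52), Dync1li2 (0.49) and Evl (0.45), and for Kcnd3 4933421O10Rik (0.57), Cdc73 (0.57) and Tmpo (0.53). Kcnip2 ranked closest to Fam213a (0.51), Slc35a3 (0.51) and Plin2 (0.50), and Kcnip3 to Top3a (0.54), Rhobtb1 (0.53) and Mcm6 (0.51). These are the highest of many values in cells that share depth differences, and no member was among another member's closest 3.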

How the data were processed

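Each library is 1 cell, grouped by the diet label into 33 chow and 32 low-sodium cells. The authors deposited 1 table of log2(CPM + 1) values. Per the submitters' processing notes, featureCounts 1.4.6 and HISAT2 2.0.5 were among the tools, with SAMtools 0.1.19, Picard 2.5.0 and bcl2fastq, and the builds were mm10 and GRCm38. Which annotation and strand setting were used is not given in the sources used here. Of 12015 lines, 121 that shared 60 names and 19 that held serial numbers as names were left out. Each line was above 0 in at least 5 cells.

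Values were taken back to CPM, and reads per cell came from the spacing of low values, 100% of which were whole steps within 0.1 of a step up to 20 steps. The CPM of the listed genes summed to over 1000000 in 17 cells, so the total behind the scaling is not known. Cells with a sum above 1200000 CPM were called high. The 2 most alike cells had a Pearson correlation of 0.688, so all were counted as separate cells. Neurons were numbered by the labels and no number pairs cells.

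Diet differences are low sodium minus chow in mean log2(CPM + 1) for all 11875 genes, called at 1 or more. With 1 sample a diet there was no test. Shares have exact 95% Clopper-Pearson intervals. Gene positions, lengths and sequences came from GENCODE M21 on GRCm38. From each gene list the 3 with the highest mean and up to 3 with the largest difference (mean at least 1) were eligible to be named, and some of these are not reported here. The members and lists were chosen with earlier results of these data known. Alternatives covered scaling, pseudocounts of 0.1 and 10 CPM, thinning to 50000 reads, detection limits of 1 and 10 CPM, and cells left out. Python 3.11.15, pandas 2.3.3, NumPy 2.4.6, SciPy 1.17.1, Biopython 1.88 and Matplotlib 3.10.9 were used, and the scripts were tested on simulated data.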

Additional observations from a re-analysis of the deposited data

How the results depend on the processing

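Of the values recomputed under other settings, 132 stayed within the spread over cells, their interval or 1.5 times a count, and 13 moved beyond it. Of the differences of 1 or more, Kcnd2 changed sign, from -1.09 to 0.0503 as a log2 ratio of mean CPM plus 1. Smaller differences changed sign within the spread: over 12 settings Kcnd3 ran from -0.30 to 0.91, Kcnip1 from -0.53 to 1.33, Kcnip2 from -0.68 to 0.51 and Kcnip4 from -0.05 to 0.79, so none of these had a stable direction. Rescaling to a common sum left 262 genes higher by 1 or more in low sodium against 429. Thinned to 50000 reads a cell, which lowers detection by construction, Kcnd2 was found in 53.8% of cells, Kcnd3 in 30.8%, Kcnip2 in 32.3%, Kcnip3 in 12.3%, and pore and KChIP genes together in 66.2%. At 10 CPM or more the shares were 56.9% for Kcnd2, 13.8% for Kcnip3 and 69.2% for pore and KChIP genes together. Without cells with non-neuronal markers, Kcnd3 was found in 33.3% and Kcnip3 in 12.1% of cells. Per kilobase of exon Kcnip1 led the KChIP genes in 58.5% of cells, and per kilobase of the principal transcript in 76.9%, a setting chosen after seeing the data. The rho of pore and KChIP sums was 0.14 without the 9 cells with high CPM sums. Leaving out 1 cell at a time gave diet differences of -1.27 to -0.98 for Kcnd2, -0.25 to 0.08 for Kcnd3, 0.31 to 0.64 for Kcnip1, -0.35 to -0.02 for Kcnip2, -1.43 to -1.13 for Kcnip3 and 0.18 to 0.57 for Kcnip4. The causes of these shifts were not tested. No paired analysis was possible because neuron numbers only name cells and no test was run.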

Other observations

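Genes of other currents active below spike threshold were measured beside the A-type genes, and all 10 of that list were present. In low-sodium cells 7 were higher and 3 lower, 2 of them higher by 1 or more in mean log2(CPM + 1) and 0 lower by that much, where 3.61% and 6.55% of all genes were. The median difference was 0.47 against -0.12 over all genes. Leaving out the 9 high-sum cells, the median was -0.0049 against -0.10 over all genes, and 0 were higher and 2 lower by 1 or more, where 2.84% and 6.27% of all genes were. Hcn4, a pacemaker channel gene, was found in 38 of 65 cells and differed by 1.41, or 0.90 without the 9 cells. Hcn3, of the same family, differed by -0.96 and by -1.11 without them. Kcnq3, an M-current subunit gene found in 16 cells, differed by 1.07 and by -0.09 without them. Cacna1g, a T-type calcium channel gene found in 60 cells, differed by -0.44 and by -1.14 without them. Nalcn, a sodium leak channel gene, averaged 7.00 log2(CPM + 1).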
